A study of Prunus persica with 25 samples.

Results

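The genes described here are those whose transcripts, in vegetative buds of the peach cultivar Fantasia, stayed low through the first 3 collections of year B and stood high at the last one. They were chosen by measured values: the mean count scaled to a library total of 1000000 (CPM) at 930CU had to be at least 10 and at least 4 times the highest of the means at Pre0CU, 200CU and 475CU. A chilling unit (CU) is an hour weighted by how well its temperature counts towards the cold requirement of the bud. Of 26873 genes counted, 13387 had a mean of at least 10 CPM at 930CU, 14 were at least 4 times above their earlier means, and 10 met both conditions. The locus identifiers, whose first digit names the chromosome, place 6 of the 10 on chromosome 1, 2 on chromosome 2 and 1 each on chromosomes 7 and 8.

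Peach buds form in summer, become dormant in autumn and regain the capacity to grow only after a period of cold. MADS-box genes of the DAM group, which repress bud growth, are known to decline as chilling accumulates. Under the scales, a vegetative bud holds a shoot apex with leaf primordia and a flower bud holds the developing floral organs. The sources used here give no name or product for any of the 10 genes, so they are described by their levels and positions and no role is attached to them.

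The libraries came from buds of one cultivar on adult field-grown trees, sampled with the bud scales removed. Buds from a small set of trees formed the replicates, and whether a replicate was a single tree or a pool is not settled by the sources. Year A was the earlier and year B the later of 2 winters. In year B vegetative buds were sequenced before chilling began (Pre0CU) and at 200CU, 475CU and 930CU, with 3 libraries per collection (12 in all), and flower buds at Pre0CU and 930CU, with 2 per collection. In year A there were 9 libraries of vegetative buds, 3 for 0CU, 3 for 475CU and 3 for 770CU. No library was from a treated or genetically altered tree, and chilling was that of the natural season. Pre0CU fell in early September and 0CU of year A at the end of October, before chilling units had accumulated. The 930CU collection fell in late December. The collection called 930CU here is labelled as taken after 770CU. At 475CU of year B the date was late November, and at 475CU of year A in early December.

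Library totals ranged from 39891412 to 71239880 counts in vegetative buds of year B, from 39615840 to 68355366 in year A and from 44894673 to 61090788 in flower buds. In year A nearly all counts were even numbers, with a median over libraries of 96.2% of the genes above 0 against 49.9% in the vegetative buds of year B, and all 90 counts of the 10 genes in that year were even. At 930CU 4 flower bud genes summed to 152 to 157 CPM in flower buds and to 12.8 to 15.0 CPM in vegetative buds, and none was at 0 in any library. Single markers did not all follow the sum. AGL20B of the flower list was at 1.46 and 1.49 CPM in flower buds and 1.25 to 1.86 CPM in vegetative buds at 930CU, and STM of the shoot meristem list was higher in flower buds, 51.6 and 44.5 CPM against 15.7 to 17.6 CPM. At 475CU of year B 2 libraries stood apart. Their LFY, a floral meristem identity gene, was at 32.4 and 30.7 CPM against 4.01 CPM in the third library, and the flower marker sum at that collection ran from 13.0 to 52.3 CPM. At 200CU of year B replicate 3 had LFY at 15.0 CPM against 3.70 and 7.34 CPM, with sums from 14.0 to 32.4 CPM, and without that library the rule gave 10 genes. With the third library alone standing for 475CU, the rule gave 10 genes, 9 of them among those described here. PRUPE_1G470500 was lost at a ratio of 2.65.

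The rise that defined the genes has a further limit. The vegetative libraries at 930CU are labelled as polyadenylated RNA and those at Pre0CU, 200CU and 475CU of year B as total RNA, although a single mRNA kit is named for all, so that the late collection and the RNA label cannot be told apart in year B. All 4 flower bud libraries carry the polyadenylated label and all 9 libraries of year A the total RNA label, so this difference was absent from the comparisons tested. In whole buds, a lower level can mean fewer cells with the transcript or less of it per cell, and these cannot be told apart. Low levels also differed between the count sets. Means of PRUPE_1G072900, a locus beside a member, were 0.54 to 0.785 CPM in vegetative buds of year B. They were 0.842 and 1.03 CPM in flower buds and 0 at each collection of year A. For PRUPE_7G087400, also beside a member, they were 1.68 to 2.35 CPM in vegetative buds of year B and 1.80 and 1.67 CPM in flower buds. In year A they were 0.0634 to 0.199 CPM. Early member means at Pre0CU of year B lie within or near these ranges, such as 0.991 CPM for PRUPE_1G021700, 1.61 CPM for PRUPE_1G021600 and 2.17 CPM for PRUPE_2G271000. Flower bud means at Pre0CU, such as 1.39 CPM for PRUPE_1G021600, do so too. Ratios and fold changes from such levels are uncertain to that extent, and the source of this difference was not tested.

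In the year B vegetative buds the highest earlier mean was exceeded 4.14-fold to 14.9-fold at 930CU, and every 930CU library lay above every 475CU library for all 10 genes, which the rule makes nearly certain; 26.4% of all genes did the same. The earlier steps gave shares near those of all genes, and nothing is read from them. From Pre0CU to 200CU, 3 of the 10 had every library higher (23.9% of all genes), 2 had every library lower (28.7%) and 5 overlapped. From 200CU to 475CU, 3 had every library higher (20.9% of all genes) and 7 overlapped. These values took part in the choice of the genes and are given, here and gene by gene below, as description without a test.

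**Figure D1:**
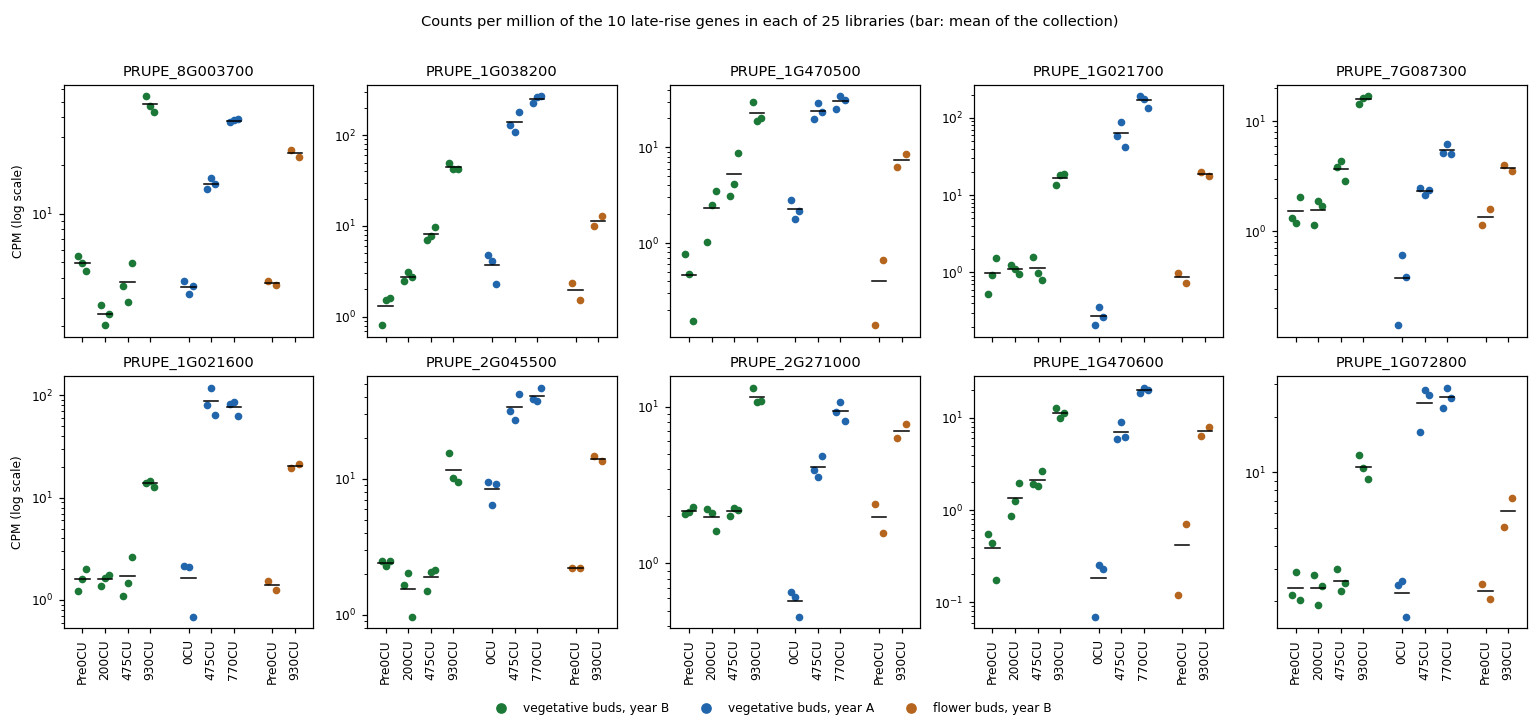
Each panel plots the CPM (log axis) of 1 gene in all 25 libraries against the collection, with vegetative buds of year B in green, vegetative buds of year A in blue and flower buds in brown, and a bar at each mean. In year B the 930CU points stand above all earlier ones in every panel, while in year A the 475CU points already stand clear of the 0CU points.

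PRUPE_1G021700 had the largest ratio of the 10 in year B, 14.9. At Pre0CU of year B it measured 0.532, 0.925 and 1.52 CPM, at 200CU 1.24, 1.11 and 0.951 CPM and at 475CU 1.60, 0.997 and 0.794 CPM. At 930CU the libraries stood at 13.5, 18.5 and 18.7 CPM. The first 3 collections overlapped throughout and only the last was separate. In year A the 3 libraries at 0CU gave 0.208, 0.353 and 0.266 CPM, those at 475CU 58.6, 89.5 and 41.8 CPM and those at 770CU 191, 177 and 136 CPM. No library of one collection reached into the next. The CPM at 475CU of year A was above that at 930CU of year B. Those 2 collections differ in winter, in count set and in RNA label, and this contrast was not tested. Flower buds went from 0.99 and 0.735 CPM at Pre0CU to 20.0 and 17.7 CPM at 930CU.

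The next locus down, PRUPE_1G021600, kept to 1.23, 1.59 and 2.00 CPM at Pre0CU, 1.36, 1.65 and 1.75 CPM at 200CU and 1.10, 1.45 and 2.63 CPM at 475CU of year B, and reached 14.0, 14.6 and 12.8 CPM at 930CU. In year A it went from 2.15, 2.12 and 0.685 CPM at 0CU to 81.1, 119 and 64.6 CPM at 475CU and 82.9, 87.3 and 63.1 CPM at 770CU. The last 2 collections of year A overlapped, and the mean at 770CU was no higher than at 475CU. Flower buds held 1.53 and 1.25 CPM at Pre0CU and 19.4 and 21.4 CPM at 930CU.

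PRUPE_1G038200 was the single member with every library higher at each step of year B. Its year B libraries gave 0.808, 1.53 and 1.59 CPM at Pre0CU, 2.48, 3.10 and 2.72 CPM at 200CU, 7.04, 7.67 and 9.86 CPM at 475CU and 50, 42.4 and 42.2 CPM at 930CU, with no overlap between neighbouring collections. In year A it measured 4.82, 4.09 and 2.32 CPM at 0CU, 129, 109 and 182 CPM at 475CU and 228, 263 and 269 CPM at 770CU, again without overlap. Flower buds rose from 2.36 and 1.54 CPM to 10.0 and 12.8 CPM.

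The pair of adjoining loci PRUPE_1G470500 and PRUPE_1G470600 stood higher from 200CU of year B. PRUPE_1G470500 measured 0.766, 0.472 and 0.154 CPM at Pre0CU, 1.02, 2.49 and 3.52 CPM at 200CU, 3.13, 4.16 and 8.67 CPM at 475CU and 29.9, 18.7 and 20.3 CPM at 930CU. PRUPE_1G470600 measured 0.553, 0.434 and 0.173 CPM, 0.867, 1.25 and 1.98 CPM, 1.93, 1.84 and 2.63 CPM and 12.8, 9.92 and 11.4 CPM at the same collections. Both had every library higher at 200CU than at Pre0CU, and both overlapped between 200CU and 475CU. In year A PRUPE_1G470500 stood at 2.84, 1.77 and 2.17 CPM at 0CU, 19.8, 29.0 and 23.6 CPM at 475CU and 25.4, 34.2 and 31.3 CPM at 770CU, the last 2 collections overlapping. PRUPE_1G470600 stood at 0.0693, 0.252 and 0.228 CPM, 5.97, 9.08 and 6.17 CPM and 18.7, 21.3 and 20.0 CPM, with no overlap. In flower buds both went from below 1 CPM at Pre0CU, 0.139 and 0.668 CPM and 0.119 and 0.713 CPM, to 6.19 and 8.43 CPM and 6.43 and 8.03 CPM at 930CU.

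PRUPE_8G003700 was lower at 200CU than before chilling. In year B it measured 5.44, 4.93 and 4.42 CPM at Pre0CU and 2.72, 2.03 and 2.37 CPM at 200CU, with no overlap, then 3.56, 2.82 and 4.97 CPM at 475CU and 54.0, 46.9 and 43.1 CPM at 930CU. Year A gave 3.81, 3.18 and 3.58 CPM at 0CU, 14.3, 16.7 and 15.3 CPM at 475CU and 37.1, 38.2 and 38.9 CPM at 770CU. The 3 libraries of each year A collection lay close together and the collections were separate. Flower buds went from 3.82 and 3.63 CPM to 25.0 and 22.6 CPM.

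PRUPE_2G045500 likewise had every library lower at 200CU, 1.65, 2.03 and 0.969 CPM against 2.49, 2.3 and 2.50 CPM at Pre0CU of year B, and stood at 1.5, 2.07 and 2.13 CPM at 475CU and 15.4, 10.1 and 9.52 CPM at 930CU. In year A it had the least contrast of the 10, with 9.57, 6.46 and 9.17 CPM at 0CU, 31.5, 27.2 and 42.5 CPM at 475CU and 38.7, 37.4 and 46.9 CPM at 770CU. The 475CU and 770CU libraries overlapped. Its flower bud libraries were at 2.22 and 2.21 CPM at Pre0CU and 14.7 and 13.5 CPM at 930CU.

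PRUPE_2G271000 and PRUPE_1G072800 showed overlapping libraries from Pre0CU to 475CU of year B. PRUPE_2G271000 gave 2.06, 2.13 and 2.3 CPM, 2.21, 2.09 and 1.60 CPM and 2.01, 2.26 and 2.19 CPM there, and 13.2, 10.7 and 10.9 CPM at 930CU. PRUPE_1G072800 gave 2.15, 2.87 and 2.02 CPM, 2.78, 1.89 and 2.40 CPM and 2.98, 2.26 and 2.49 CPM, and 12.4, 10.5 and 9.17 CPM at 930CU. In both genes only the last collection stood clear of the one before. PRUPE_2G271000 rose in separate steps, 0.659, 0.606 and 0.456 CPM at 0CU, 3.97, 3.57 and 4.84 CPM at 475CU and 9.30, 10.7 and 8.10 CPM at 770CU. PRUPE_1G072800 went from 2.43, 2.57 and 1.64 CPM at 0CU to 16.5, 28.1 and 26.4 CPM at 475CU and stayed at 22.4, 28.8 and 25.3 CPM at 770CU, overlapping. Flower bud values were 2.38 and 1.56 CPM then 6.30 and 7.72 CPM for PRUPE_2G271000, and 2.48 and 2.05 CPM then 5.06 and 7.23 CPM for PRUPE_1G072800.

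PRUPE_7G087300 measured 1.32, 1.19 and 2.06 CPM at Pre0CU, 1.14, 1.87 and 1.70 CPM at 200CU, 3.84, 4.34 and 2.84 CPM at 475CU and 14.5, 16.3 and 17.0 CPM at 930CU of year B. In year A it measured 0.139, 0.606 and 0.38 CPM at 0CU, 2.45, 2.13 and 2.38 CPM at 475CU and 5.13, 6.17 and 5.05 CPM at 770CU, a clear order at low levels. Flower buds gave 1.13 and 1.58 CPM and 4.04 and 3.54 CPM. It was the only member whose mean at 475CU was lower in year A than in year B, at 0.632 times, while the others were up to 56.0 times higher in year A. The tables of the 2 years were scaled separately and differ at low levels, as given above, and this contrast was not tested.

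The flower bud libraries took no part in the choice of the genes and so allow a test. All 10 genes rose from Pre0CU to 930CU, and both 930CU libraries lay above both Pre0CU libraries for all 10, as for 46.5% of all genes. The first count stands against 21.4% of 26657 genes called higher and 21.8% called lower. A gene was called when the Benjamini-Hochberg adjusted p of edgeR's quasi-likelihood test (FDR) was below 0.05 and the fold change above 1.4. The median log2 fold change of the 10 was 2.53, against 0.00177 over all genes tested. The changes ran from a log2 fold change of 1.29 ± 0.23 (SE, FDR = 0.00189 by edgeR) for PRUPE_1G072800 to a log2 fold change of 4.30 ± 0.17 (SE, FDR = 1.01e-06 by edgeR) for PRUPE_1G021700. Both members of the PRUPE_1G470500 and PRUPE_1G470600 pair rose, a log2 fold change of 4.07 ± 0.47 (SE, FDR = 0.000183 by edgeR) and a log2 fold change of 4.01 ± 0.50 (SE, FDR = 0.000259 by edgeR). Their sizes rest on the Pre0CU libraries: the log2 fold change of PRUPE_1G470500 was 3.31 without Pre0CU replicate 1 and 5.53 without Pre0CU replicate 2, and that of PRUPE_1G470600 was 3.20 and 5.73. PRUPE_1G021600 gave a log2 fold change of 3.73 ± 0.15 (SE, FDR = 1.06e-06 by edgeR). PRUPE_8G003700 and PRUPE_2G045500 gave a log2 fold change of 2.53 ± 0.11 (SE, FDR = 1.46e-06 by edgeR) and a log2 fold change of 2.53 ± 0.13 (SE, FDR = 3.36e-06 by edgeR). PRUPE_1G038200 followed at a log2 fold change of 2.40 ± 0.23 (SE, FDR = 6.76e-05 by edgeR). The smaller changes besides PRUPE_1G072800 were those of PRUPE_2G271000, a log2 fold change of 1.68 ± 0.24 (SE, FDR = 0.000515 by edgeR), and PRUPE_7G087300, a log2 fold change of 1.35 ± 0.24 (SE, FDR = 0.00172 by edgeR). Flower buds between the 2 collections, early September and late December, were not analysed here, so the time of the rise in flower buds is not resolved. The summed shoot meristem markers moved with the collection, from 237 to 266 CPM at Pre0CU to 140.3 to 154 CPM at 930CU, as did the 4 flower bud markers, from 104 to 113 CPM to 152 to 157 CPM. Within these sums STM went the other way, from 32.4 and 26.8 CPM to 51.6 and 44.5 CPM, and so did AGL20B, from 4.52 and 5.10 CPM to 1.46 and 1.49 CPM. The part of the markers in the result was not tested.

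At 930CU the vegetative mean was above the flower mean for 7 of the 10 genes and below it for 3. The like share over all genes was not counted, so nothing is read from these counts. PRUPE_7G087300 had the highest ratio of vegetative to flower bud mean, 4.21, and PRUPE_1G021600 the lowest, 0.677. The other genes below 1 were PRUPE_1G021700 at 0.895, whose libraries of the 2 bud types overlapped, and PRUPE_2G045500 at 0.826, likewise overlapping. At Pre0CU the ratios lay between 0.673 and 1.32. There the vegetative libraries carry the total RNA label and the flower ones the polyadenylated label, so bud type and label cannot be told apart. Many of the means at Pre0CU were also at the low levels described above. Because the genes were chosen on the vegetative 930CU libraries, the bud types were not tested against each other.

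**Figure D2:**
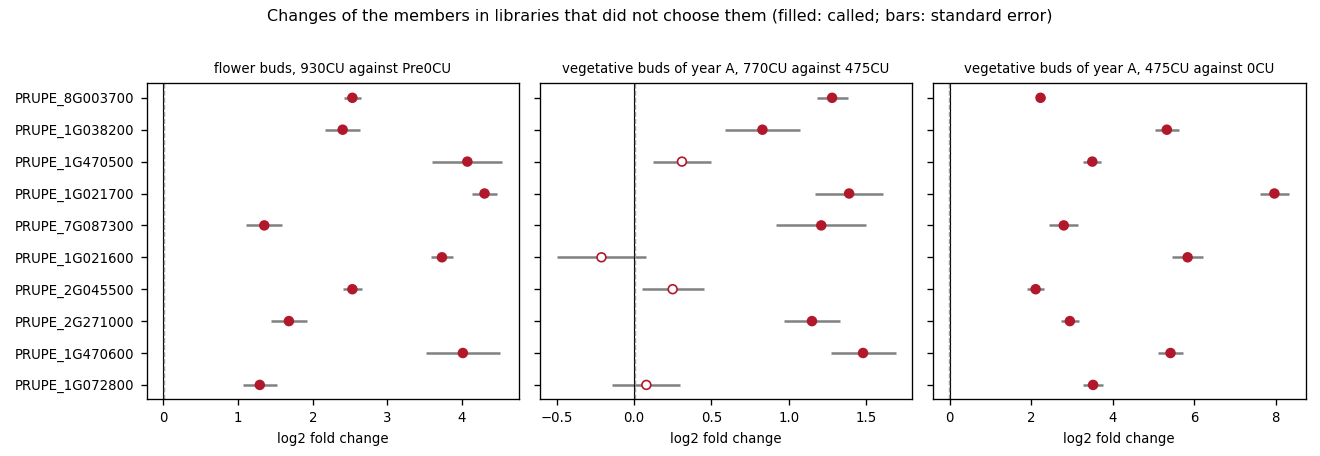
Points give the log2 fold change of each of the 10 genes in the 3 comparisons tested (each panel with its own x axis), with bars for the standard error, a dashed line at the median of all genes, filled points for called genes and open points for the rest. All 10 points are filled in flower buds and from 0CU to 475CU of year A, and 6 of 10 are filled from 475CU to 770CU.

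The name under which the genes were gathered, a rise confined to the time after 475CU, did not hold in year A. From 0CU to 475CU of that year all 10 were called higher, against 10.8% of 20950 genes called higher and 13.9% called lower, and all 10 had every 475CU library above every 0CU library, as 14.4% of all genes did. Their median log2 fold change was 3.51, against -0.00904 over all genes. PRUPE_1G021700 had the largest log2 fold change of the 20950 genes, a log2 fold change of 7.97 ± 0.35 (SE, FDR = 5.07e-07 by edgeR), from a mean of 0.276 ± 0.0732 CPM (SD, n = 3) to 63.3 ± 24.2 CPM (SD, n = 3). PRUPE_1G021600 came 6th at a log2 fold change of 5.84 ± 0.38 (SE, FDR = 5.43e-06 by edgeR), PRUPE_1G470600 12th at a log2 fold change of 5.42 ± 0.31 (SE, FDR = 2.33e-06 by edgeR) and PRUPE_1G038200 14th at a log2 fold change of 5.33 ± 0.30 (SE, FDR = 2.33e-06 by edgeR). The count of PRUPE_1G470600 at 0CU was as low as 4, which would be 2 with the even counts of year A halved, so the size of its change is loosely fixed. Counts at 0CU were also low for PRUPE_1G021700, at 12, 14 and 14, and for PRUPE_7G087300, at 8, 24 and 20. The sizes of their changes, and the first rank of PRUPE_1G021700, rest on these low counts. With halved counts all 10 genes were again called. Changes of intermediate size were seen for PRUPE_1G072800, a log2 fold change of 3.52 ± 0.25 (SE, FDR = 9.89e-06 by edgeR), and PRUPE_1G470500, a log2 fold change of 3.50 ± 0.22 (SE, FDR = 4.75e-06 by edgeR). The smallest belonged to PRUPE_8G003700, a log2 fold change of 2.23 ± 0.11 (SE, FDR = 1.21e-06 by edgeR), and PRUPE_2G045500, a log2 fold change of 2.11 ± 0.21 (SE, FDR = 4.94e-05 by edgeR). PRUPE_2G271000 and PRUPE_7G087300 lay between, with a log2 fold change of 2.95 ± 0.22 (SE, FDR = 1.16e-05 by edgeR) and a log2 fold change of 2.80 ± 0.35 (SE, FDR = 0.000209 by edgeR).

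The rule places the rise between 475CU and the last collection of year B. The step from 475CU to 770CU of year A ends at less chilling and covers only part of that interval. A rise after 770CU could meet the rule and would be missed here. This step shares its 475CU libraries with the comparison above, so the results of the 2 comparisons are not independent. Here 6 of the 10 genes were called higher and none lower, against 3.95% of 20950 genes called higher and 8.21% called lower, and the same 6 had every 770CU library above every 475CU library (16.6% of all genes). The median log2 fold change of the 10 was 0.989, against 0.00666 over all genes. PRUPE_1G470600 rose most, a log2 fold change of 1.48 ± 0.21 (SE, FDR = 0.00128 by edgeR), followed by PRUPE_1G021700, a log2 fold change of 1.39 ± 0.22 (SE, FDR = 0.00238 by edgeR), and PRUPE_8G003700, a log2 fold change of 1.28 ± 0.10 (SE, FDR = 7.33e-05 by edgeR). PRUPE_7G087300 rose by a log2 fold change of 1.21 ± 0.29 (SE, FDR = 0.0172 by edgeR), and PRUPE_2G271000 by a log2 fold change of 1.15 ± 0.18 (SE, FDR = 0.00234 by edgeR). PRUPE_1G038200 passed narrowly, a log2 fold change of 0.83 ± 0.24 (SE, FDR = 0.039 by edgeR). With the replicate number as a block its FDR by edgeR was 0.0504 and 5 of the 10 genes were called. It also missed the threshold without any 1 of 5 of the 6 libraries, with FDR by edgeR from 0.0664 to 0.13, and PRUPE_7G087300 missed it without 475CU replicate 1 or 2 or 770CU replicate 2, with FDR by edgeR from 0.0572 to 0.0687.

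The other 4 genes did not pass in this interval. PRUPE_1G470500 had a log2 fold change of 0.31 ± 0.19 (SE, FDR = 0.289 by edgeR), and PRUPE_2G045500 had a log2 fold change of 0.25 ± 0.20 (SE, FDR = 0.404 by edgeR). PRUPE_1G072800 had a log2 fold change of 0.08 ± 0.22 (SE, FDR = 0.822 by edgeR), and PRUPE_1G021600 was the single member with a lower mean at 770CU, a log2 fold change of -0.21 ± 0.29 (SE, FDR = 0.657 by edgeR). These are also the 4 genes whose 475CU and 770CU libraries overlapped. The flower marker sum was 12.6 to 24.0 CPM at 0CU, 15.8 to 30.4 CPM at 475CU and 7.98 to 9.04 CPM at 770CU of year A, and the summed shoot meristem markers were at 299 to 343 CPM throughout. Within that sum KNOX-B went from 120 to 125 CPM at 0CU to 47.4 to 57.1 CPM at 475CU and 40.2 to 48.2 CPM at 770CU, KNAT1 from 160 to 176 CPM to 203 to 233 CPM and 198 to 232 CPM, and STM from 33.6 to 38.5 CPM to 42.8 to 53.9 CPM and 49.0 to 62.5 CPM. Their part in these results was not tested.

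Measured as the part of the whole 0CU to 770CU rise in mean CPM that was present at 475CU of year A, the 10 genes ran from 34.4% for PRUPE_8G003700 to 114% for PRUPE_1G021600, the latter having passed its 770CU mean. PRUPE_1G470600, PRUPE_1G021700, PRUPE_7G087300 and PRUPE_2G271000 were at 34.8%, 37.5%, 38.3% and 40.5%. PRUPE_1G038200 was at 54.6%. The remaining genes, PRUPE_2G045500, PRUPE_1G470500 and PRUPE_1G072800, had reached 77.8%, 78.0% and 92.0%. So 5 of the 10 had made over 50% of their rise by 475CU in year A. In year B the like part of the Pre0CU to 930CU rise lay between -5.72% and 21.6%, a range that the choice of the genes holds low. The 2 years also end at different chilling, 770CU and 930CU, and begin at different dates, and whether the years differ was not tested.

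**Figure D3:**
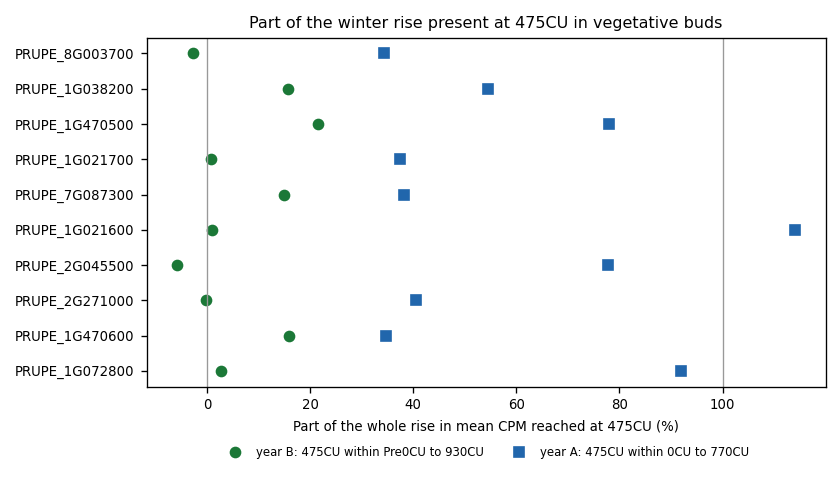
For each of the 10 genes the x axis gives the percent of the whole rise in mean CPM that was present at 475CU, in year B (circles, Pre0CU to 930CU) and in year A (squares, 0CU to 770CU). The circles lie between -5.72% and 21.6% by the choice of the genes, and the squares lie between 34.4% and 114%.

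Within the 2 pairs of adjoining locus numbers the ratio of counts, which is read only across collections since it also depends on gene length, varied. The count of PRUPE_1G021700 divided by that of PRUPE_1G021600 was 0.0968 to 0.389 in the libraries at 0CU of year A, 0.648 to 0.75 at 475CU and 2.03 to 2.31 at 770CU. In year B it was 0.431 to 0.76 at Pre0CU, 0.543 to 0.913 at 200CU, 0.302 to 1.45 at 475CU and 0.966 to 1.46 at 930CU, so that 475CU and 930CU overlapped. In flower buds it moved from 0.589 to 0.649 at Pre0CU to 0.828 to 1.03 at 930CU. For PRUPE_1G470500 over PRUPE_1G470600 the ratio in year A fell from 7 to 41 at 0CU to 3.19 to 3.82 at 475CU and 1.36 to 1.61 at 770CU, the first resting on very low counts. In year B vegetative buds it was 0.889 to 1.38 at Pre0CU, 1.18 to 2.0 at 200CU, 1.62 to 3.29 at 475CU and 1.78 to 2.33 at 930CU, and in flower buds it stayed at 0.938 to 1.17 and 0.962 to 1.05. Whether the genes of a pair overlap, or are copies similar enough to share reads, was not tested, and their separate levels are uncertain to that extent.

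Loci next to the members were looked at after the values were seen. Of the 16 with the next lower or higher locus number in the tables, 6 were called higher in flower buds and none lower (21.4% of all genes were called higher). In year A 9 of the 16 passed the filter on low counts, and of these 8 were called higher from 0CU to 475CU (10.8% of all genes), while 2 were called higher (3.95%) and 1, PRUPE_7G087200, lower from 475CU to 770CU (8.21%). The other 7 were too low to test in year A, and nothing is read from counts over those that passed. None of the 7 had a year A mean above 0.199 CPM, while their year B vegetative means ran from 0.4 to 2.35 CPM. PRUPE_1G021500, the locus below PRUPE_1G021600, rose with it: its mean went from 2.68 ± 0.872 CPM (SD, n = 3) at 0CU to 109 ± 35.2 CPM (SD, n = 3) at 475CU of year A, a log2 fold change of 5.42 ± 0.29 (SE, FDR = 1.33e-06 by edgeR), and it rose in flower buds by a log2 fold change of 3.31 ± 0.18 (SE, FDR = 3.44e-06 by edgeR). PRUPE_1G021800, on the other side of the pair, rose by a log2 fold change of 2.98 ± 0.22 (SE, FDR = 1.2e-05 by edgeR) from 0CU to 475CU and by a log2 fold change of 0.67 ± 0.15 (SE, FDR = 0.00537 by edgeR) in flower buds. Neither passed from 475CU to 770CU, with a log2 fold change of -0.39 ± 0.23 (SE, FDR = 0.259 by edgeR) and a log2 fold change of -0.21 ± 0.20 (SE, FDR = 0.509 by edgeR). Thus 4 adjoining loci rose together in flower buds and in the first interval of year A, and of these PRUPE_1G021700 passed again by 770CU. Differences between the loci were not tested.

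PRUPE_1G038100, next to PRUPE_1G038200, lay just outside the rule with a 930CU mean of 1791 ± 806 CPM (SD, n = 3) against 449 ± 117 CPM (SD, n = 3) at 475CU, a ratio of 3.99. It was called higher in all 3 comparisons, with a log2 fold change of 2.53 ± 0.13 (SE, FDR = 2.7e-06 by edgeR) in flower buds, a log2 fold change of 1.59 ± 0.17 (SE, FDR = 7e-05 by edgeR) from 0CU to 475CU and a log2 fold change of 2.15 ± 0.17 (SE, FDR = 6.69e-05 by edgeR) from 475CU to 770CU. PRUPE_1G038300, on the other side, was called higher from 0CU to 475CU, a log2 fold change of 2.28 ± 0.48 (SE, FDR = 0.00434 by edgeR). It did not pass from 475CU to 770CU, a log2 fold change of 0.14 ± 0.43 (SE, FDR = 0.859 by edgeR). In flower buds it did not pass either, a log2 fold change of 0.11 ± 0.31 (SE, FDR = 0.788 by edgeR). Beside the PRUPE_1G470500 pair, PRUPE_1G470400 rose by a log2 fold change of 5.21 ± 0.38 (SE, FDR = 1.15e-05 by edgeR) from 0CU to 475CU of year A but had a log2 fold change of 0.44 ± 0.43 (SE, FDR = 0.422 by edgeR) in flower buds, where its means were 0.588 ± 0.271 CPM (SD, n = 2) and 0.878 ± 0.154 CPM (SD, n = 2). Those 2 changes were not tested against each other. PRUPE_1G072700, next to PRUPE_1G072800, rose in flower buds by a log2 fold change of 1.36 ± 0.24 (SE, FDR = 0.00176 by edgeR) and from 0CU to 475CU by a log2 fold change of 3.27 ± 0.49 (SE, FDR = 0.00058 by edgeR).

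**Figure D4:**
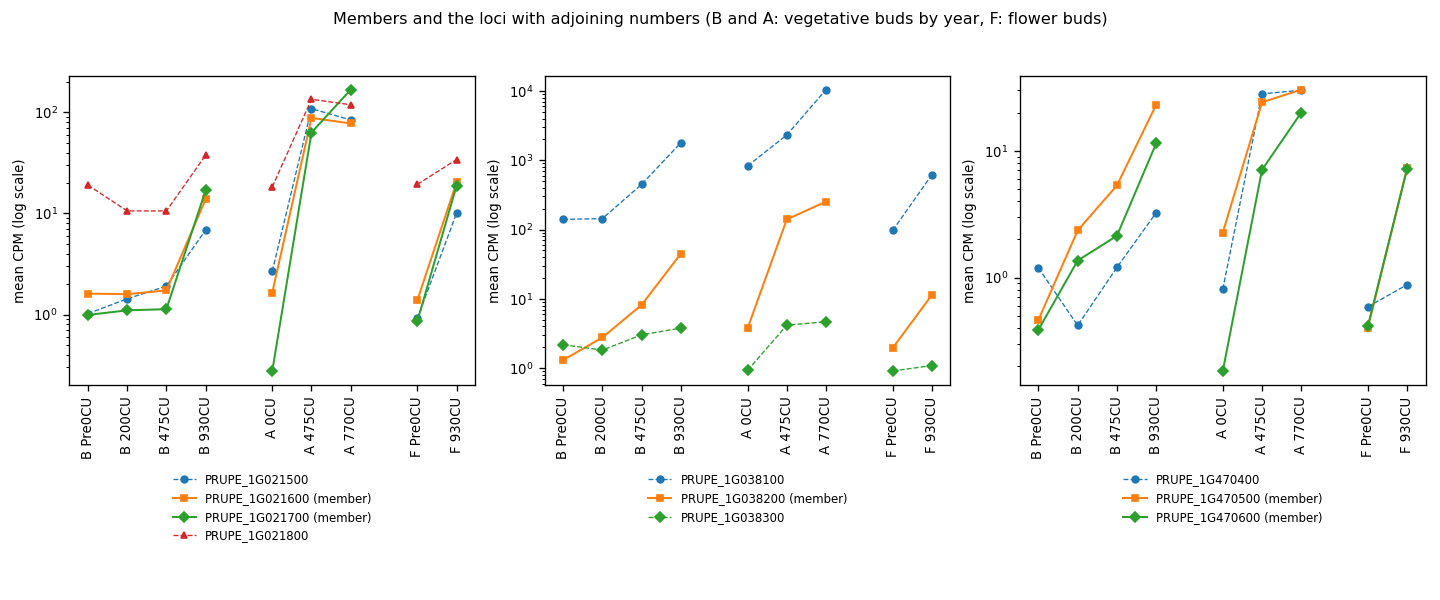
Mean CPM (log axis) of 3 runs of adjoining loci in the 9 collections, with solid lines for members, dashed lines for the loci beside them, and the letters B, A and F for vegetative buds of year B, vegetative buds of year A and flower buds. In the left panel all 4 loci are higher at 475CU than at 0CU of year A, and in the right panel PRUPE_1G470400 is higher at 475CU than at 0CU of year A, while its flower bud means are 0.588 and 0.878 CPM.

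The fold limit ran between genes with ratios close to it, while the level limit fell in a gap. Just inside the fold limit were PRUPE_1G072800 at 4.14 times and PRUPE_1G470500 at 4.32 times its highest earlier mean, and just outside it, besides PRUPE_1G038100, was PRUPE_3G051800 with 97.2 against 25.0 CPM, 3.89 times. The members nearest the level limit were PRUPE_1G072800 at 10.7 and PRUPE_1G470600 at 11.4 CPM at 930CU. The nearest genes below it that met the fold limit were PRUPE_3G110100 at 4.80 CPM and PRUPE_3G128700 at 0.173 CPM. A limit of 5 CPM gave the same 10 genes. Replicate 1 of 930CU was the highest of the 3 for 7 of the 10 genes, and without it the rule kept 7, losing PRUPE_1G072800, PRUPE_1G470500 and PRUPE_2G045500.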

How the data were processed

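Gene counts, the unit of all 3 tables used (vegetative buds of year A, vegetative and flower buds of year B), were made and deposited by the authors, who trimmed reads, mapped them with STAR to the peach genome, discarded duplicates and counted reads over exons with bedtools 2.30.1. Nothing was normalised before deposit. Columns were tied to groups by their names, and 475CU was tied to its year by the numbered sets in the labels. CPM was the count over the column total, not scaled by gene length, so levels of different genes are not comparable and ratios of 2 genes were read only across collections. Tests used edgeR 4.0.16 in R 4.3.3 (TMM factors, filterByExpr at a minimum count of 10, quasi-likelihood F test, two-sided, 1 fit per table), with genes called at FDR below 0.05 and a fold change above 1.4. All 10 genes passed the filter in every comparison. P-values set the difference between collections against the spread between replicate bud samples. Each fit covered a single farm and winter, so they do not speak for other winters or sites. The text names all 10 genes the rule gave and the nearest 2 on either side of each limit. The genes and lists were chosen with earlier results of these data known, and support nothing by themselves. Keyword groups of gene products were not used, since none of the 10 genes had a product name here. DESeq2 1.42.0, other scaling, filters, thresholds, wider fits, halved year A counts, a replicate block and each library left out were tried as alternatives. Between 475CU and 770CU of year A, same-numbered deviations had correlations of 0.167 to 0.323 over 3 pairs, and differently numbered ones -0.223 to 0.0639. Same-numbered correlations were not positive in the other comparisons, at -0.191 to -0.00134 between 0CU and 475CU, which the block also covered. The numbers are not tied to trees and the libraries are few, so whether the columns are paired is not settled.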

Additional observations from a re-analysis of the deposited data

How the results depend on the processing

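The number of genes meeting the rule depended on its limits: it was 17 at 3 times, 3 at 6 times and 3 at 20 CPM, against 10 as chosen, and 7 to 11 when 1 library was left out. Of 10, all were called higher from 0CU to 475CU of year A under every alternative tried, where 1369 to 2605 of all genes were called higher. In flower buds all 10 were called under every alternative that kept all 4 libraries, where 4485 to 5842 of all genes were. With the replicate block it was 10 in each. From 475CU to 770CU 6 were called with DESeq2, 4 at FDR below 0.01 and a fold change above 1.5, 5 with the replicate block and 4 to 6 with 1 library left out. Of all genes, 928 were called higher with DESeq2, 870 with the block and 530 to 746 with 1 library left out. Of the 4 genes that did not pass there, 2 changed sign under 3 settings: PRUPE_1G021600 to a log2 fold change of 0.07 without 475CU replicate 2, with a range of -0.37 to 0.07 over libraries left out, and PRUPE_1G072800 to -0.13 without 475CU replicate 1 and -0.01 without 770CU replicate 2, with a range of -0.13 to 0.21. At the stricter thresholds, which by construction call fewer genes, the number of all genes called higher was 327 against 828 from 475CU to 770CU and 1369 against 2256 from 0CU to 475CU. Of 360 member values under alternatives, 346 kept their direction and side of the threshold, 11 lost the call and 3 changed sign. Counts of a few reads at 0CU limit the sizes of the changes from it.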
